A study of Mus musculus with 8 samples.

Results

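The genes of the MYC network and its amino acid supply were followed by RNA sequencing of mouse thymocytes with floxed Bcl6, which encodes a zinc-finger transcriptional repressor. The members were 10 genes taken by symbol, all listed in both systems, out of 13073 genes listed in either. They are Myc, its partner Max, the MAX-binding repressors Mxd3, Mxd4 and Mnt, the transporters Slc7a5, Slc3a2, Slc1a5 and Slc38a2, and the polyamine enzyme gene Odc1. The 4 groups held 2 libraries each. In vivo, thymocytes negative for CD4 and CD8 and positive for CD5 and TCRβ were sorted from Bcl6fl/fl Cd4cre mice (labelled KO) and from Bcl6fl/fl mice (labelled WT). In vitro, sorted double-positive thymocytes of the same genotypes were stimulated by antibodies to CD3 and CD28 (8 µg/ml of either) over 24 h of culture, after which double-negative cells were collected by sorting. Every group therefore carries the floxed alleles, and the Cre is driven by Cd4, so that deletion begins in immature thymocytes that express Cd4. The labels give no age, sex or pooling of animals. They also do not say whether replicates were separate mice or cultures, so a p-value here covers the spread between 2 libraries of a group, which may be technical.

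MYC is a basic helix-loop-helix leucine zipper protein that binds DNA as a dimer with MAX at E-boxes and raises transcription of genes for ribosome assembly, nucleotide synthesis and nutrient uptake. MXD proteins and MNT also pair with MAX, occupy the same sites and recruit SIN3 corepressors. In T cells, antigen receptor signals raise MYC together with amino acid transporters, and entry of large neutral amino acids through SLC7A5 is needed for that growth response.

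Total counts were 14754440 to 23975636 per library. Bcl6, on chromosome 16 (23965052 to 23988852, minus strand, GRCm38), had FPKM of 64.6 and 61.0 in the in vitro libraries labelled KO, against 24.9 and 21.9 in those labelled WT (FPKM is the fragment count scaled by gene length and library size). Counted over the whole gene, it was thus higher under the KO label in vitro. In vivo it had 8.81 and 14.4 FPKM under the KO label and 11.5 and 13.9 under the WT label. Counts over the whole gene cannot separate the deleted exons, so Bcl6 checks no label, and KO and WT below mean libraries so labelled. Of 10 listed markers of the sorted thymocytes, 5 rose in KO in vitro (Cd4 0.72, Cd8b1 0.76, Cd247 0.70, Lck 0.41 and Cd3d 0.25 on the log2 scale) and 2 fell (Cd8a -0.42 and Cd3e -0.26), and none passed in vivo (edgeR). Cd3e was at 88.8 to 123 FPKM over the 8 libraries. Cd4 transcript, although its protein is gated out, reached 22.8 and 78.4 FPKM in KO and 26.8 and 55.0 FPKM in WT in vivo. Bulk libraries cannot separate fewer cells of a type from less RNA per cell. The in vivo libraries were made by BGI Genomics and the in vitro ones by Novogene, so a difference in level between systems cannot be told apart from one between library makers.

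In vitro, transcripts of Myc, Slc7a5, Slc3a2 and Odc1 fell and transcript of the MYC antagonist Mxd4 rose in the libraries labelled KO. The changes were moderate, with the largest at Odc1, whose level in KO was 0.617 times that in WT. Of 9 members tested, 4 fell and 1 rose, where 17.7% of the 9658 genes tested fell and 20.1% rose (edgeR quasi-likelihood F test, threshold of 0.05 on p adjusted by Benjamini-Hochberg). Together 37.8% of genes passed. In vivo none of the 10 members passed, where 1.10% of 10227 genes did. The in vivo fit was the less sensitive. In simulated data it recovered 76 of 100 genes changed 2-fold, against 94 of 100 for the in vitro fit.

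**Figure D1:**
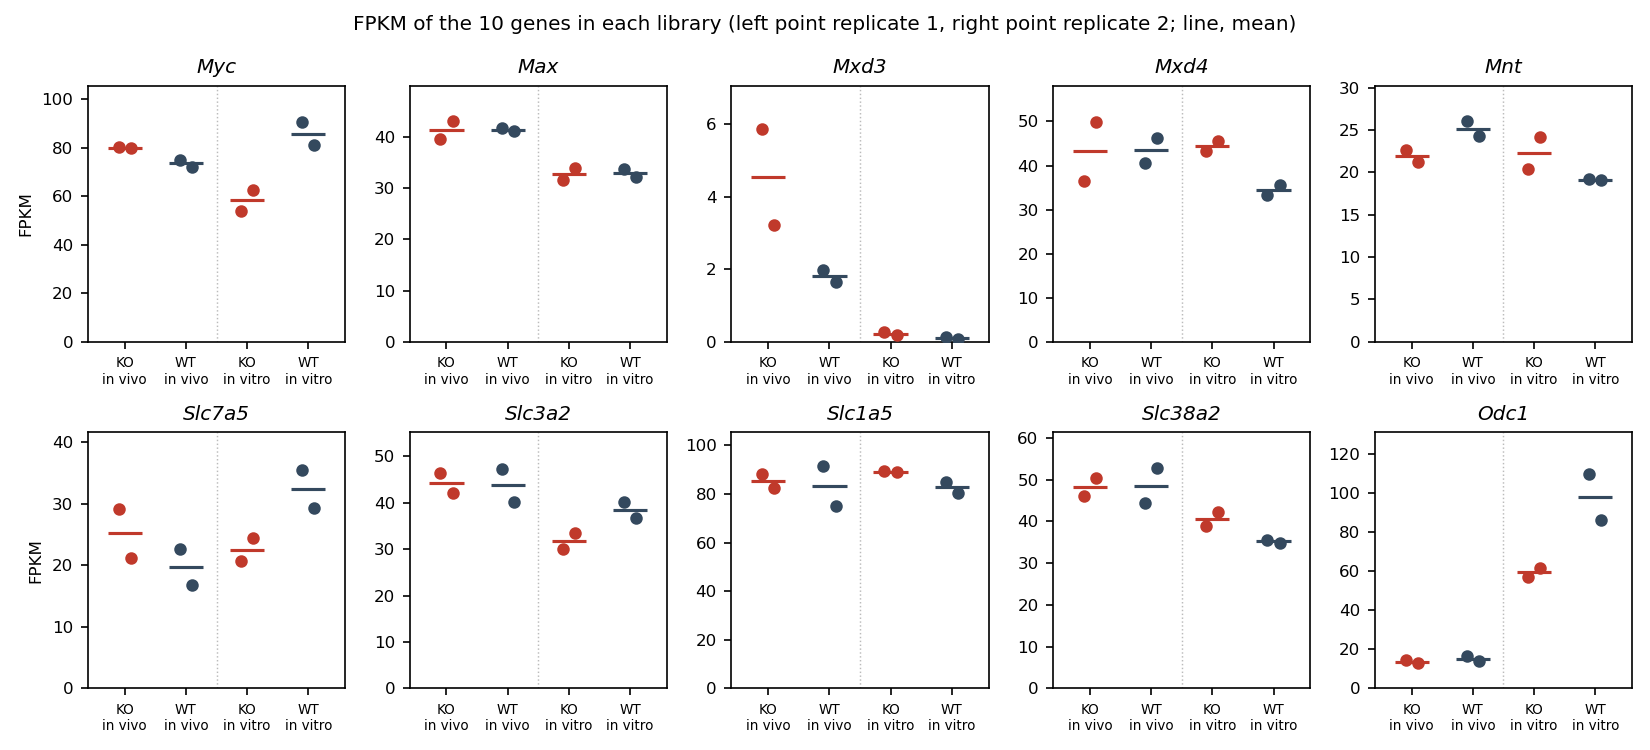
FPKM (vertical axis, from 0) of each of the 10 genes in the 8 libraries, grouped as KO and WT in vivo and KO and WT in vitro; points are replicates 1 and 2 and lines are means. In vitro the KO points lie below the WT points for Myc, Slc7a5, Slc3a2 and Odc1 and above them for Mxd4, and Odc1 is between 12.8 and 16.4 FPKM in vivo against 57.0 to 110 FPKM in vitro.

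Myc lies on the plus strand of chromosome 15 (61985391 to 61990374). In vitro it had 53.9 and 62.8 FPKM in the KO libraries, against 90.5 and 81.3 FPKM in the WT libraries. Both KO libraries were below both WT libraries, and the log2 fold change was -0.53 (SE 0.10, 95% interval -0.74 to -0.32, n = 2 per group; edgeR adjusted p = 0.00136). Even the lower level was among the most abundant transcripts, above 93.6% of the genes listed in that library. The call held in every alternative fit of this comparison, with adjusted p from 2.44e-08 to 0.00985.

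Max, the obligate partner of MYC and of its antagonists, lies on chromosome 12 (76937269 to 76962201, minus strand). Its FPKM in vitro was 31.6 and 33.9 in KO and 33.6 and 32.1 in WT. The groups overlapped, and the log2 fold change of 0.02 (SE 0.08, 95% interval -0.16 to 0.20) did not pass (edgeR adjusted p = 0.853).

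Mxd4, on chromosome 5 (34173883 to 34187720, minus strand), was the most abundant of the 3 antagonists among the members. It had 43.2 and 45.5 FPKM in KO in vitro, against 33.4 and 35.6 FPKM in WT, without overlap. Reads from an unlisted antisense gene that overlaps it (Gm42846) cannot be told apart. The log2 fold change was 0.39 (SE 0.09, 95% interval 0.20 to 0.58; edgeR adjusted p = 0.00476).

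Mnt, the antagonist that is broadly expressed in resting and dividing cells, lies on chromosome 11 (74830920 to 74845725, plus strand). Its FPKM in vitro was 20.4 and 24.2 in KO and 19.2 and 19.1 in WT. The groups did not overlap, as was true of 8 of the 9 members (4 with KO higher and 4 with KO lower) and of 71.1% of all genes tested (32.5% and 38.6%), and the log2 fold change of 0.25 (SE 0.10) missed the threshold (edgeR adjusted p = 0.0632). Mnt passed at an FPKM of at least 5 and with a crossed pairing of replicate numbers, and did not pass with DESeq2, limma or other scalings. With a library left out, its log2 fold change ran from 0.12 to 0.37.

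Mxd3, an antagonist that in mice is expressed in cells passing through S phase, was near the detection limit in vitro. It had 11 and 10 counts in KO and 8 and 3 counts in WT, a KO-to-WT ratio of 2.003 with an exact 95% binomial interval of 0.9234 to 4.601, which covers counting error only. It did not reach the expression filter (2 or more libraries with an FPKM of 1 or higher) and was not tested there.

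The 3 network genes whose promoters hold the E-box CACGTG are shown because this hexamer is the site shared by MYC, MNT and MXD dimers with MAX. RefSeq windows (GRCm38.p6, 250 bases before to 50 after the annotated start) were matched for 7 of the 10 members, and none was matched for Myc, Slc7a5 and Slc1a5. CACGTG, which reads the same on both strands, was in 3 of these 7, in 7.15% of all 32851 windows and, by gene, in 12.5% of the 7857 genes tested in vitro that have a window. Each is written 5′ to 3′ on the gene's strand with 17 bases to either side, the E-box in capitals.
Mxd4 (chr5:34187907-34187946, minus strand): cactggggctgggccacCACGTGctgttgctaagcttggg
Mnt (chr11:74830784-74830823, plus strand): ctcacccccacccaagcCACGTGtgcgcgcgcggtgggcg
Max (chr12:76962229-76962268, minus strand): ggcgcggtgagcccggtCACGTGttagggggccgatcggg
Counted from the start, the E-box begins at -219 in Mxd4 and at -123 in Mnt, and in Max it begins at -3 and so lies across the start. TGATGNAA, the composite element bound by ATF4 with CEBP proteins, and TTCCNNGAA, the core of the BCL6 motif, were searched on both strands and were in none of the 7 windows, against 3.97% and 4.81% of all windows. Which factor, if any, binds these windows was not measured.

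**Figure D2:**
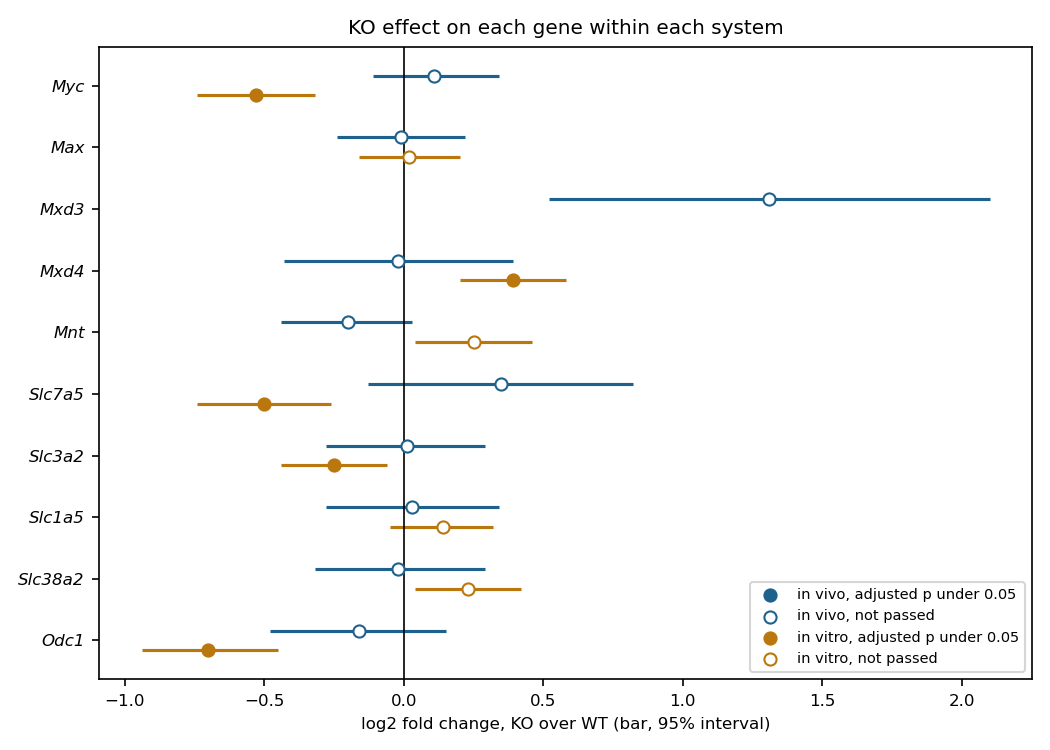
Log2 fold change, KO over WT (horizontal axis), of each gene in vivo (blue, upper) and in vitro (orange, lower), with 95% intervals from the edgeR fits; filled points passed an adjusted p of 0.05 and open points did not. In vitro Myc (-0.53), Slc7a5 (-0.50), Slc3a2 (-0.25) and Odc1 (-0.70) fell and Mxd4 (0.39) rose, while in vivo every point is open, and Mxd3 has no in vitro point because it was not tested.

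The transporters did not move as one group in vitro. Slc7a5 and Slc3a2 encode the light and heavy chain of the exchanger of large neutral amino acids (LAT1 and CD98). Slc7a5, on chromosome 8 (121881150 to 121907694, minus strand), had 20.6 and 24.4 FPKM in KO in vitro, against 35.4 and 29.3 FPKM in WT. It was lower in both KO libraries than in either WT library, with a change of -0.50 on the log2 scale (SE 0.11, 95% interval -0.74 to -0.26; edgeR adjusted p = 0.00464). Fitted with all 8 libraries it was also -0.50, with an adjusted p of 0.0562. An unlisted gene on the other strand (Gm20388) overlaps Slc7a5, and its reads cannot be told apart.

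Slc3a2, on chromosome 19 (8706882 to 8723369, minus strand), had 30.0 and 33.5 FPKM in KO in vitro, against 40.2 and 36.6 FPKM in WT. The groups did not overlap, and the log2 fold change was -0.25 (SE 0.09; edgeR adjusted p = 0.0427). This is the least secure of the 5 calls, since its adjusted p was 0.264 when WT replicate 1 was left out and 0.256 when KO replicate 1 was. It was 0.0597 by DESeq2 and 0.115 in a fit of all 8 libraries.

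The other 2 transporters carry small neutral amino acids with sodium. Slc1a5 (ASCT2), an exchanger that takes up glutamine, lies on chromosome 7 (16781340 to 16798274, plus strand) and had 89.5 and 89.0 FPKM in KO in vitro, against 84.9 and 80.6 FPKM in WT. Slc38a2 (SNAT2), which many cells raise when amino acids are short, lies on chromosome 15 (96687392 to 96699730, minus strand) and had 38.9 and 42.3 FPKM in KO, against 35.6 and 34.9 FPKM in WT. Neither gene's groups overlapped and KO was the higher, but the log2 fold changes of 0.14 (SE 0.08) and 0.23 (SE 0.09) did not pass (edgeR adjusted p = 0.231 and 0.0545). Slc38a2 passed with DESeq2 (adjusted p = 0.0404), with total count scaling (0.0424) and with a stricter filter (0.0332), and its adjusted p over all fits ran from 0.00292 to 0.263.

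Odc1 encodes ornithine decarboxylase, the rate-limiting enzyme of polyamine synthesis and a long-known MYC target, on chromosome 12 (17544794 to 17551505, plus strand). It had 57.0 and 61.5 FPKM in KO in vitro, against 110 and 86.1 FPKM in WT. The WT libraries differed from each other more than the KO libraries did, but both lay above both KO libraries. The log2 fold change was -0.70 (SE 0.11, 95% interval -0.94 to -0.45; edgeR adjusted p = 0.000622), and it stayed past the threshold in every alternative fit, with values from -0.86 to -0.52 as single libraries were left out.

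The order of the members by level also differed between the in vitro groups. By mean FPKM in KO, Slc1a5 (89.2 ± 0.342, SD, n = 2) stood first, above Odc1 (59.2 ± 3.20) and Myc (58.4 ± 6.25), which did not differ beyond their spread. In WT, Odc1 (97.8 ± 16.6), Myc (85.9 ± 6.53) and Slc1a5 (82.7 ± 3.06) lay within each other's spread. Mnt (22.3 ± 2.67 in KO and 19.1 ± 0.0387 in WT) was below all members but Mxd3, and in KO it did not differ from Slc7a5 (22.5 ± 2.68) beyond their spread.

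Ratios within a library, which no scaling between libraries affects, show the balance of these genes. The summed FPKM of Mxd3, Mxd4 and Mnt was 1.18 and 1.11 times that of Myc in KO in vitro, against 0.582 and 0.674 times in WT. This sum thus exceeded Myc in both KO libraries and stayed below it in both WT libraries. It leaves out the antagonists Mxd1 and Mxi1. It also restates the calls on Myc and Mxd4 and is not a separate result. The ratio of Slc7a5 to its partner Slc3a2 was 0.689 and 0.730 in KO, against 0.881 and 0.800 in WT. In vivo that ratio had the opposite order, also without overlap, at 0.629 and 0.504 in KO and 0.478 and 0.418 in WT. The ratio of Odc1 to Myc was 1.056 and 0.9798 in KO and 1.21 and 1.059 in WT, with KO replicate 1 and WT replicate 2 nearly equal.

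**Figure D3:**
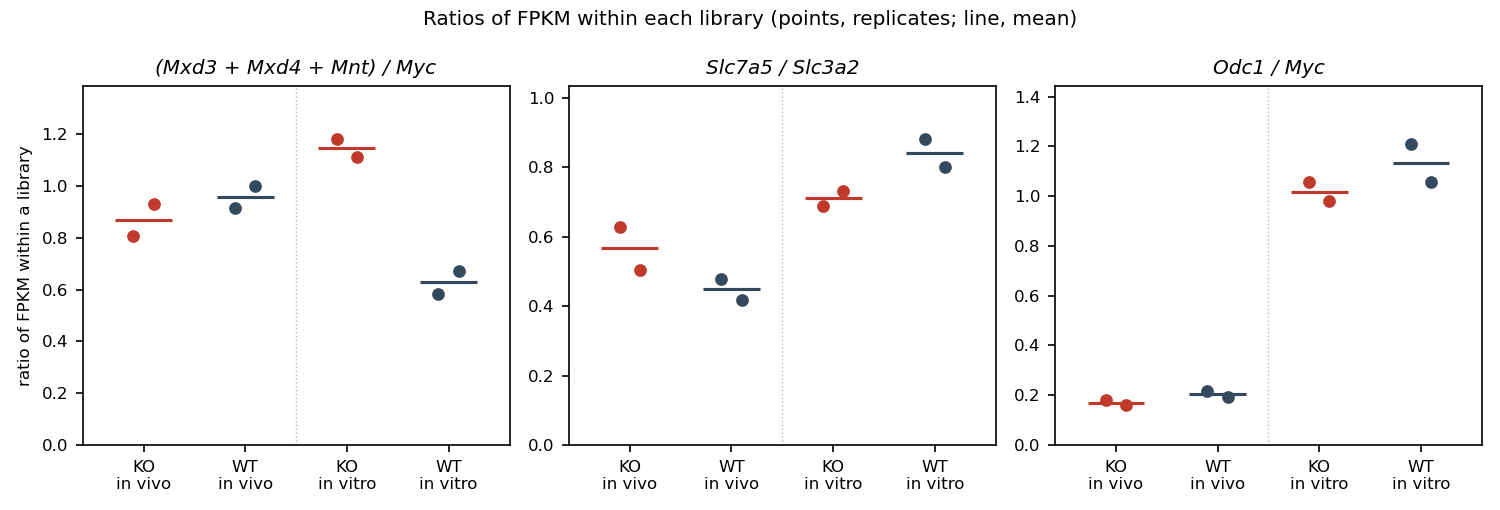
Ratios of FPKM within each library (vertical axis, from 0) for the summed antagonists over Myc, Slc7a5 over Slc3a2 and Odc1 over Myc; points are replicates and lines are means, with KO and WT in vivo on the left and KO and WT in vitro on the right. In vitro the summed Mxd3, Mxd4 and Mnt are 1.18 and 1.11 times Myc in KO against 0.582 and 0.674 times in WT, while in vivo all 4 libraries lie between 0.809 and 1.002.

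The pathway around the members was described by 8 lists of genes, each read beside all genes tested. The lists were chosen with earlier results of these data known, so their counts are a description and not an independent test. Genes of ribosome assembly that are known MYC targets fell almost as a block in vitro. Of 35 tested, 34 fell and none rose (edgeR adjusted p under 0.05), with a median log2 fold change of -0.63, against a median of 0.00 and 17.7% fallen over all genes. The one exception was Tcof1 (-0.10, adjusted p = 0.350). Gnl3, the nucleolar GTPase nucleostemin, had 21.7 and 22.1 FPKM in KO, against 41.9 and 38.1 FPKM in WT (-0.84, SE 0.08). Dkc1, the pseudouridine synthase of box H/ACA particles, fell by 0.75 on the log2 scale (SE 0.09), Polr1b, a core subunit of RNA polymerase I, fell by 0.78 (SE 0.10) and Heatr1, a factor for ribosomal RNA processing, fell by 0.66 (SE 0.08). With single libraries left out, 30 to 34 of the 35 passed.

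Cytosolic aminoacyl-tRNA synthetases and their scaffold proteins, which load the amino acids that these transporters import, were lower as well. Of 22 tested in vitro, 17 fell and none rose, beside 17.7% and 20.1% of all genes. All 22 had a log2 fold change below 0, and the median was -0.35. Farsb, the beta subunit of the phenylalanine enzyme, had 36.1 and 37.3 FPKM in KO, against 73.8 and 74.3 FPKM in WT (-0.99, SE 0.08; edgeR adjusted p = 6.28e-06). The isoleucine enzyme gene Iars fell by 0.64 (SE 0.09), the glutamate and proline enzyme gene Eprs by 0.57 (SE 0.09) and the complex component Eef1e1 by 0.54 (SE 0.11). Without WT replicate 1, 11 of the 22 passed.

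Of 25 metabolic MYC targets tested in vitro, 13 fell and 3 rose, beside 17.7% and 20.1% of all genes, with a median of -0.29. Those that fell include enzymes of nucleotide and folate metabolism, with Ctps, which makes CTP, at 14.3 and 16.2 FPKM in KO and 26.4 and 25.3 FPKM in WT (-0.73, SE 0.09). Mthfd1 of the folate cycle (-0.68, SE 0.09), Impdh2 of guanine nucleotide synthesis (-0.65, SE 0.09) and the hexokinase gene Hk2 (-0.75, SE 0.10) fell too. The 3 that rose were Tyms (0.42, SE 0.15) and Rrm1 (0.24, SE 0.08), which make DNA precursors and are highest in S phase, and the enolase gene Eno1 (0.33, SE 0.11), whose reads may be shared with a near-identical copy. Without WT replicate 1, 9 fell and 1 rose. The 3 calls of higher level are not secure, since no metabolic target rose with no filter, with limma, with all 8 libraries in the fit or without WT replicate 2, and 1 rose with DESeq2, without KO replicate 1 or without KO replicate 2.

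**Figure D4:**
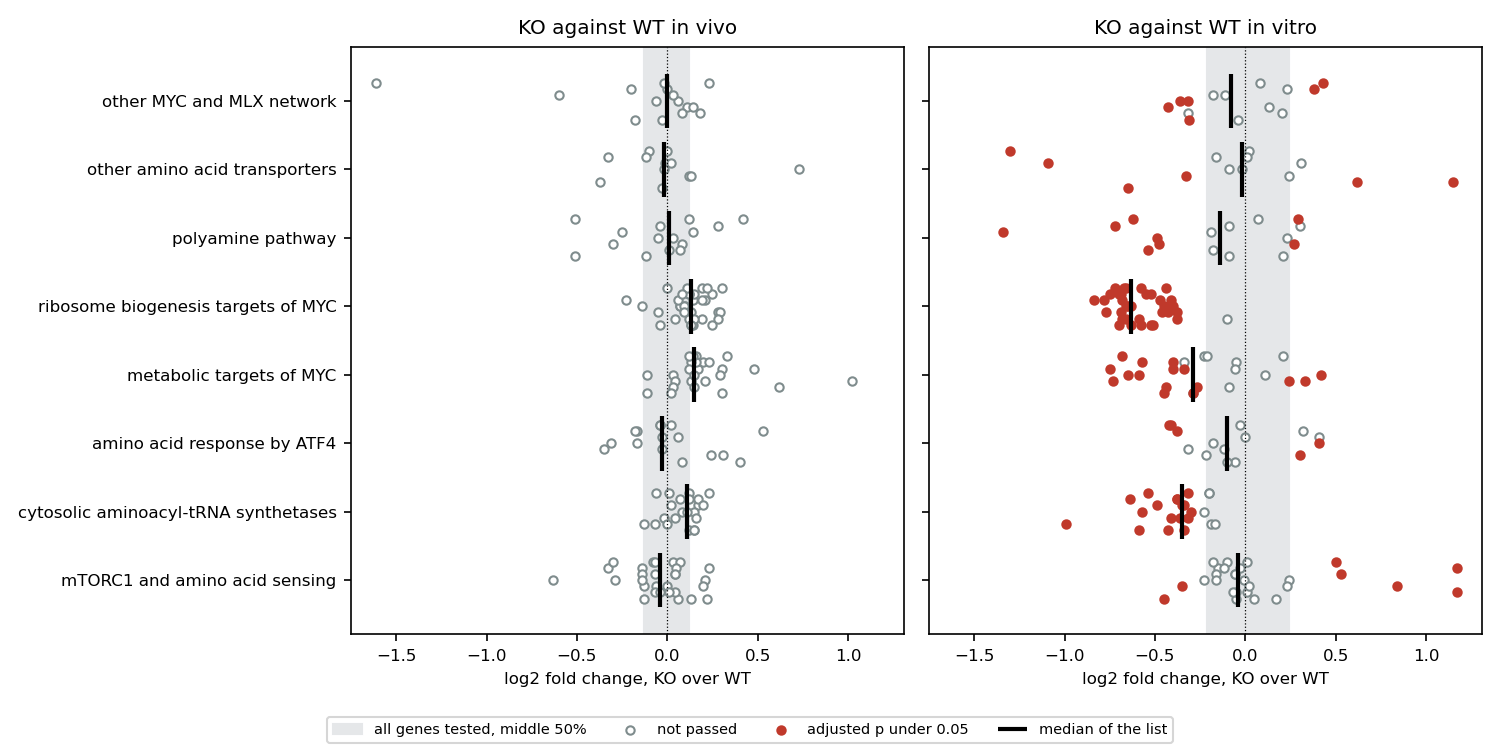
Log2 fold change, KO over WT (horizontal axis), of every tested gene of the 8 pathway lists in vivo (left) and in vitro (right); filled points passed an adjusted p of 0.05, open points did not, black bars are list medians and the grey band is the middle 50% of all genes tested. In vitro the ribosome biogenesis genes cluster around -0.63 with 34 of 35 filled and the tRNA synthetases around -0.35, while in vivo no point is filled and those medians are 0.13 and 0.11.

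In the polyamine pathway around Odc1, 6 of 16 tested genes fell and 2 rose in vitro, beside 17.7% and 20.1% of all genes. Rises were thus no more frequent than over all genes. Amd1 and Srm, which with Odc1 make spermidine, fell by 0.62 (SE 0.09) and 0.72 (SE 0.13), and Srm had 54.1 and 71.0 FPKM in KO, against 117 and 93.1 FPKM in WT. Reads of Amd1 may be shared with its close copy Amd2. Mat2a, which makes S-adenosylmethionine, and Mtap, which salvages methylthioadenosine, fell by 0.48 (SE 0.08) and 0.49 (SE 0.09). The 2 that rose were the antizyme gene Oaz2 (0.27, SE 0.09) and the spermine oxidase gene Smox (0.29, SE 0.10). The related genes Oaz1 (0.23), Sat1 (0.21) and Paox (0.30) did not pass (edgeR adjusted p = 0.0962, 0.123 and 0.0668). The arginase gene Arg1, counted among those that fell, had 0.481 and 0.786 FPKM in KO, against 1.66 and 1.68 FPKM in WT, and reached the expression filter only through the WT libraries. All 6 of these were named after their values were seen. Without WT replicate 1, 5 of 15 tested genes fell and none rose.

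In the rest of the MYC and MLX network, calls ran both ways. In vitro 4 of 14 tested genes fell and 2 rose, against 17.7% and 20.1% over all genes, with a median of -0.08. Ruvbl1 and Ruvbl2, ATPases of chromatin complexes that bind MYC, fell by 0.36 (SE 0.09) and 0.43 (SE 0.10), and the MYC cofactor Wdr5 by 0.31 (SE 0.09). Mxd1, another MAX-binding repressor, had 3.53 and 3.48 FPKM in KO, against 2.46 and 2.88 FPKM in WT, and rose by 0.43 (SE 0.12; edgeR adjusted p = 0.0147). The antagonist gene Mxi1, named here after its values were seen, rose by 0.38 (SE 0.12; edgeR adjusted p = 0.0236). Without WT replicate 1, 2 genes fell and none rose, and without KO replicate 1, 1 fell and 1 rose.

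Among 13 other amino acid transporters tested in vitro, 4 fell and 2 rose, beside 17.7% and 20.1% of all genes, with a median of -0.02. Slc7a1, which carries arginine and lysine, had 21.8 and 25.3 FPKM in KO, against 52.6 and 49.5 FPKM in WT (-1.09, SE 0.10; edgeR adjusted p = 1.55e-05). Slc1a4, the close relative of Slc1a5, fell by 1.30 (SE 0.15). Slc43a2 (LAT4), which carries large neutral amino acids one way, had 7.78 and 8.18 FPKM in KO, against 3.45 and 3.88 FPKM in WT (1.15, SE 0.10). The lysosomal and plasma membrane carrier gene Slc36a1 rose by 0.62 (SE 0.09).

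The 2 remaining lists concern amino acid shortage and mTORC1. Of 15 tested genes of the amino acid response, 3 fell and 2 rose, beside 17.7% and 20.1% of all genes, among them its regulator Atf4 at 64.9 and 63.1 FPKM in KO, against 93.6 and 80.5 FPKM in WT (-0.42, SE 0.09). The count depends on the expression filter. With no filter, 7 of 19 fell and 3 rose, beside 2002 and 2120 of all 12133 genes. Aldh18a1, for proline synthesis (-0.38, SE 0.08), and the phosphatase subunit gene Ppp1r15a (-0.41, SE 0.11) fell and Ddit4, an mTORC1 inhibitor, rose (0.41, SE 0.10). Without WT replicate 1, 2 fell and 1 rose. Of 28 genes of mTORC1 and amino acid sensing, 5 rose and 2 fell, beside 20.1% and 17.7% of all genes, so calls in this list were no more frequent than over all genes. Tfeb, a driver of lysosomal genes, had 1.81 and 1.89 FPKM in KO, against 0.816 and 0.864 FPKM in WT (1.17, SE 0.17), and passed the expression filter only through the KO libraries. Rps6ka1 (0.84, SE 0.08), the arginine sensor gene Castor1 (1.17, SE 0.24), its partner Castor2 (0.53, SE 0.10) and the sestrin gene Sesn3 (0.50, SE 0.09) also rose. Castor1 was named after its values were seen.

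In the in vivo cells labelled KO, no member and no gene of the 8 lists passed in the main edgeR fit of the 4 in vivo libraries. Other fits did call list genes. With a block for replicate numbers, edgeR on the same libraries called 7 higher and 5 lower of 170 tested, beside 607 and 471 of all 10227 genes. DESeq2 called 3 higher and 3 lower of 170 tested, beside 260 higher and 245 lower of all 10227 genes. With all 8 libraries 3 were higher and 4 lower of 169, beside 266 and 279 of all 10015 genes. Calls in the lists were thus no more frequent than over all genes. Of the 10 members, 1 had an unadjusted p under 0.05 in the main fit, as did 14.1% of all genes. The replicate block passed 2 members, DESeq2 passed 1 and limma on log2(FPKM + 1) passed none. Myc had 80.3 and 79.8 FPKM in KO in vivo, against 75.1 and 72.1 FPKM in WT. The groups did not overlap, as for 3 of the 10 members (2 with KO higher and 1 with KO lower) and 43.4% of all genes (22.0% and 21.4%), and the log2 fold change was 0.11 (SE 0.09, 95% interval -0.11 to 0.34; edgeR adjusted p = 0.707). The interval does not reach the value measured in vitro.

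Mxd3 had the largest in vivo fold change among the members. It lies on chromosome 13 (55325168 to 55329823, minus strand) and had 5.89 and 3.22 FPKM in KO, against 1.99 and 1.65 FPKM in WT. KO replicate 1 stood highest and the groups did not overlap, with a log2 fold change of 1.31 (SE 0.33, 95% interval 0.52 to 2.10; edgeR adjusted p = 0.137). It passed with DESeq2 (adjusted p = 0.0248) and with all 8 libraries in the edgeR fit (0.0324). With a block for replicate numbers, which are not known to pair the samples, it was 1.28 (SE 0.21; edgeR adjusted p = 0.00248). The log2 fold change was 1.70 without KO replicate 2 and 0.81 without KO replicate 1.

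Genes of dividing cells followed the same order of libraries. Mki67 had 47.2 and 26.2 FPKM in KO in vivo, against 15.4 and 13.8 FPKM in WT, and Top2a had 40.2 and 22.6 FPKM, against 13.9 and 10.5 FPKM. Both were chosen after their values were seen, and their part in the Mxd3 result was not tested. Mxd3 overlaps Prelid1 on the other strand and the strand setting of the counts is not given in the sources used here, so reads from the overlap cannot be told apart. Prelid1 had 48.0 and 45.7 FPKM in KO, against 49.9 and 38.2 FPKM in WT.

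The other network members were close between labels in vivo. Max had 39.6 and 43.1 FPKM in KO and 41.6 and 41.2 FPKM in WT (log2 fold change -0.01, 95% interval -0.24 to 0.22). Mxd4 had 36.4 and 49.96 FPKM in KO and 40.6 and 46.3 FPKM in WT (-0.02, 95% interval -0.43 to 0.39). In both groups the library with more Cd4 transcript also had more Mxd4 and less Slc7a5. These genes were picked after their values were seen. Deviations of same-numbered libraries correlated at 0.459 over 10227 genes in vivo, so a shared order is not particular to these genes. Its cause was not tested. Mnt had 22.7 and 21.3 FPKM in KO, against 26.1 and 24.3 FPKM in WT, without overlap and with -0.20 as its log2 fold change (SE 0.10; edgeR adjusted p = 0.425).

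Of the transporters in vivo, Slc7a5 had 29.1 and 21.2 FPKM in KO, against 22.6 and 16.8 FPKM in WT. The groups overlapped, and the log2 fold change was 0.35 (SE 0.20, 95% interval -0.13 to 0.82; edgeR adjusted p = 0.540), or 0.10 without KO replicate 1. Slc7a5 passed with a block for replicate numbers (edgeR adjusted p = 0.0371). Slc3a2 (46.3 and 42.2 FPKM in KO, 47.4 and 40.2 FPKM in WT), Slc1a5 (88.4 and 82.4 in KO, 91.3 and 74.9 in WT) and Slc38a2 (46.1 and 50.5 in KO, 44.4 and 52.7 in WT) overlapped between labels. Their log2 fold changes were 0.01, 0.03 and -0.02, with 95% intervals inside -0.32 to 0.34. Odc1 had 14.5 and 12.8 FPKM in KO and 16.4 and 14.0 FPKM in WT (-0.16, 95% interval -0.48 to 0.15).

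In vivo the medians of the pathway lists ran from -0.04 to 0.15, with the largest shift at the metabolic targets. Their median was 0.15 over 26 genes, that of ribosome biogenesis 0.13 over 35 and that of the tRNA synthetases 0.11 over 22, each beside a median of 0.00 and a middle 50% from -0.13 to 0.12 over all genes. Below 0 were 2 of the 26 metabolic targets, 5 of the 35 ribosome biogenesis genes and 5 of the 22 synthetase genes, beside 5211 of all 10227 genes. Most genes of these lists were thus slightly higher in KO, and whether the lists differ from all genes was not tested. Tyms (5.04 and 3.38 FPKM in KO, 2.35 and 1.80 in WT) and Rrm1 (15.8 and 10.3 in KO, 9.08 and 7.88 in WT) were highest in KO replicate 1, as Mki67 was, and did not pass (edgeR adjusted p = 0.125 and 0.247). Without KO replicate 2, 2 metabolic targets passed, and without WT replicate 1, 1 transporter gene passed. Mycn, the paralog of Myc, had 0.974 and 0.664 FPKM in KO, against 3.23 and 1.74 FPKM in WT, a log2 fold change of -1.61 (SE 0.37) that missed the threshold (edgeR adjusted p = 0.122). It reached the expression filter only through the WT libraries. The antagonist gene Mxi1 (-0.60, SE 0.13), the aromatic amino acid carrier gene Slc16a10 (0.73, SE 0.15) and the polyamine catabolism genes Sat1 (-0.51, SE 0.11) and Smox (-0.51, SE 0.12) had adjusted p from 0.103 to 0.123. In the lists of these genes DESeq2 called 1 network gene lower, 1 transporter gene higher, and 2 polyamine genes lower and 1 higher, and the fit of all 8 libraries called 2 network genes lower with the same counts for the other 2 lists. The replicate block gave the same counts in these lists as the fit of all 8 libraries. It also called 3 metabolic targets and 2 amino acid response genes higher and 1 mTORC1 gene lower.

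Markers of other cells were set beside these values. The summed FPKM of B cell markers (6 of 7 listed, Ighm with no row) was 15.8 to 22.3 in KO, against 4.32 to 12.9 in WT, and that of myeloid markers (8 of 9 listed, Cd14 with no row) was 57.1 to 182 in KO, against 51.6 to 78.2 in WT. NK and gamma delta T cell markers (6 of 9 listed) summed to 299 to 344 in KO and 195 to 300 in WT. In vitro the B cell list had 2 of 7 genes, at 5.06 to 5.76 in KO and 2.85 to 2.95 in WT, and the myeloid list 3 of 9, at 41.2 to 44.8 in KO and 44.4 to 48.0 in WT. In vitro the NK and gamma delta list had 2 of 9 genes, at 1.15 to 1.36 in KO and 0.486 to 0.536 in WT. Erythroid markers (4 of 7 listed) summed to 2.24 to 6.10 in KO and 2.11 to 2.92 in WT in vivo, and to 3.94 to 14.6 in KO and 2.14 to 13.9 in WT in vitro. Stromal markers summed to 20.4 to 20.5 in KO and 22.0 to 26.5 in WT in vivo (4 of 8 listed), and to 28.3 to 29.7 in KO and 15.6 to 17.4 in WT in vitro (3 of 8 listed). The defining B cell genes Ms4a1, Pax5 and Ebf1 had no row in vitro. The part of these cells in the members' values was not tested.

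The effect of the label was then compared between the systems, as the in vivo minus the in vitro log2 fold change over all 8 libraries. It differed for Myc and Slc7a5, 2 of the 9 members tested, both higher in vivo, where 16.4% of 9364 genes passed (6.57% higher and 9.81% lower in vivo). At an unadjusted p under 0.05 there were 4 of the 9 members and 32.2% of all genes. For Myc the effects were 0.11 in vivo and -0.53 in vitro, a difference of 0.67 (SE 0.14, 95% interval 0.36 to 0.98; edgeR adjusted p = 0.0103). For Slc7a5 they were 0.35 in vivo and -0.50 in vitro, a difference of 0.87 (SE 0.25, 95% interval 0.30 to 1.43; edgeR adjusted p = 0.0410). Both calls were lost without WT replicate 1 in vitro (adjusted p = 0.0668 for Myc and 0.166 for Slc7a5) and without KO replicate 1 in vitro (0.0554 and 0.143). The Slc7a5 call was also lost without KO replicate 2 in vitro (0.0667), without WT replicate 2 in vivo (0.0880) and without KO replicate 1 in vivo (0.147).

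Odc1 and Mnt came close to the threshold for that difference. For Odc1 it was 0.56 (SE 0.19, 95% interval 0.14 to 0.98; edgeR adjusted p = 0.0682), with 0.0291 by DESeq2. For Mnt, which was lower in KO in vivo and higher in KO in vitro without overlap in either, it was -0.42 (SE 0.15; edgeR adjusted p = 0.0712). Mxd4 (-0.38, SE 0.19), Slc3a2 (0.28, SE 0.16), Slc38a2 (-0.22, SE 0.15), Slc1a5 (-0.08, SE 0.16) and Max (0.00, SE 0.12) did not pass, with adjusted p from 0.194 to 0.985. Mxd4 was -0.62 (adjusted p = 0.0316) without KO replicate 2 in vivo and -0.17 (0.549) without KO replicate 1 in vivo. Mnt passed without KO replicate 1 in vitro (-0.56, adjusted p = 0.0465) and without WT replicate 2 in vivo (-0.49, 0.0475). Among the lists, 27 of 35 ribosome biogenesis genes, 12 of 22 tRNA synthetase genes and 9 of 25 metabolic targets had a higher effect in vivo than in vitro, and none in these 3 lists a lower one. In the other 5 lists the counts higher and lower were 0 and 5 of 28 (mTORC1), 5 and 3 of 15 (polyamine), 2 and 2 of 12 (transporters), 2 and 1 of 14 (network) and 0 and 1 of 15 (amino acid response), and leaving out WT replicate 1 in vitro brought them to 0 and 1, 1 and 0, 1 and 1, 0 and 1, and 0 and 0. Without KO replicate 1 in vitro the mTORC1, polyamine, transporter and network counts were 0 and 1, 2 and 1, 1 and 1, and 0 and 1. The mTORC1 and polyamine counts were 0 and 1 and 2 and 3 without KO replicate 2 in vitro, and 0 and 2 and 1 and 1 without KO replicate 1 in vivo. Without KO replicate 1 in vivo the network count was 0 and 1, without WT replicate 2 in vitro the mTORC1 count was 0 and 3, and without WT replicate 1 in vivo the amino acid response count was 2 and 1. For the first 3 lists the counts without WT replicate 1 in vitro were 17, 3 and 4. The synthetase count was also 4 without KO replicate 1 in vitro, 6 without KO replicate 2 in vitro and 3 without KO replicate 1 in vivo, and the metabolic count was 4 without KO replicate 1 in vitro.

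The level of Odc1 separated the systems more than the label did. It was 12.8 to 16.4 FPKM in the 4 in vivo libraries, against 57.0 to 110 FPKM in the 4 in vitro libraries, and its ratio to Myc was 0.160 to 0.219 in vivo, against 0.9798 to 1.21 in vitro. Mxd3 went the other way, at 1.65 to 5.89 FPKM in vivo and 0.0775 to 0.262 FPKM in vitro. Slc1a5 was nearly level, at 74.9 to 91.3 FPKM in vivo and 80.6 to 89.5 FPKM in vitro.

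The genes whose pattern over the 8 libraries was most like that of Myc were sought among 9201 genes, by Pearson correlation of log2 CPM after centring each system at 0. The 5 highest were Psmd2 (r = 0.995), Cluh (0.995), Trmt61a (0.995), Nop2 (0.994) and Nomo1 (0.993), over 8 libraries that share their group labels and scaling. Nop2, a ribosomal RNA methyltransferase, had 29.5 and 28.6 FPKM in KO and 27.5 and 24.9 FPKM in WT in vivo. In vitro it had 41.0 and 47.1 FPKM in KO, against 77.4 and 66.1 FPKM in WT. Among the members the same r was 0.873 for Odc1, 0.843 for Slc3a2 and 0.798 for Slc7a5, and it was 0.0136 for Max, -0.381 for Slc1a5, -0.567 for Mnt, -0.637 for Slc38a2 and -0.721 for Mxd4. Only the level of each system was removed, so r also carries the differences between KO and WT given above and is not a separate result.

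E-boxes in the windows of genes that fell with Myc in vitro are shown for comparison with those of the network genes. They were sought in the windows of the 5 genes most like Myc and of the genes named by smallest p in vitro. The latter came from the ribosome biogenesis, synthetase, metabolic and polyamine lists. Those whose RefSeq window holds CACGTG are shown (GRCm38.p6, written as above). All genes so chosen fell, so no gene that rose is displayed. Tyms and Slc36a1, which rose, also hold CACGTG, as does Aldh18a1, which fell.
Nop2 (chr6:125131806-125131845, plus strand): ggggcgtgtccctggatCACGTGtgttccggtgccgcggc
Cluh (chr11:74649468-74649507, plus strand): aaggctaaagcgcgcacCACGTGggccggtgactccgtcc
Farsb (chr1:78488914-78488953, minus strand): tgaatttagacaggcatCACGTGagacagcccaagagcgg
Iars (chr13:49682044-49682083, plus strand): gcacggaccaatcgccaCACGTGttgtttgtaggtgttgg
Impdh2 (chr9:108560309-108560348, plus strand): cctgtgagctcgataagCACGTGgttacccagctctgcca
The E-box lies between 19 and 110 bases before the start in these 5 genes. By gene, 6 of 29 ribosome biogenesis genes with a window (20.7%), 4 of 15 tRNA synthetase genes (26.7%) and 5 of 23 metabolic targets (21.7%) hold it. So do 6 of 28 genes of mTORC1 and amino acid sensing (21.4%), 3 of 14 polyamine genes (21.4%), 3 of 18 other transporters (16.7%), 2 of 16 network genes (12.5%) and 2 of 21 amino acid response genes (9.52%), against 12.5% of genes tested in vitro. The share was thus about as high in the mTORC1 list, which did not fall as a block, as in the lists that did. The list counts take every listed gene with a window, including genes not tested in vitro such as Mlxipl and Nupr1. The 12.5% takes tested genes only, so the list shares are not on the same basis.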

How the data were processed

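RNA was extracted from sorted cells with TRIzol, per the labels' protocols. The authors' deposited values are, for each library, whole-number counts and FPKM by gene. Per the submitters' processing notes, the build was mm10 and the tools included RSEM, DESeq2, Bowtie2, Subread, featureCounts and Trim Galore (0.4.4), in roles not stated. For the annotation and strand setting no source used here gives a value. The files list 12133 genes in vitro and 12665 in vivo, none with a mean count under 5, so low rows had been removed before deposit.

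Counts were tested with edgeR 4.0.16 (R 4.3.3, TMM scaling, quasi-likelihood F test, two-sided) on genes that reached an FPKM of 1 in 2 or more libraries, each system's 4 libraries alone, and over all 8 for the difference between systems (at least 2 libraries of each). P-values were adjusted by Benjamini-Hochberg over all genes tested, with a threshold of 0.05. Standard errors were taken as |log2 fold change| divided by the root of F. The fits were tested on simulated data. Alternatives were DESeq2 1.42.0, limma 3.58.1, other scalings, filters and pseudocounts, a block for replicate numbers, and fits without single libraries, where a group's remaining library is assumed to vary as the other groups do. Gene coordinates are from GENCODE M21 (GRCm38). The members and lists were chosen with earlier results of these data known. The genes named from a list are the up to 4 with the smallest p that passed, or the smallest p where fewer than 2 passed. Others were chosen after their values were seen. One gene of the B cell marker list is not reported here, and the sums leave it out.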

Additional observations from a re-analysis of the deposited data

Results flagged for a closer look

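The label effect on Myc differed between the systems by 0.67 on the log2 scale (in vivo minus in vitro; edgeR adjusted p = 0.0103), with both KO libraries above both WT libraries in vivo and below them in vitro. Groups without overlap were also seen for 43.4% of all genes in vivo and 71.1% in vitro. The in vivo change of Myc, 0.11, did not pass (edgeR adjusted p = 0.707). The label effect on Slc7a5 differed by 0.87 (edgeR adjusted p = 0.0410), with overlapping groups in vivo and KO below WT in both libraries in vitro. With a library left out, the difference ran from 0.55 to 0.78 for Myc and from 0.61 to 1.11 for Slc7a5. Both calls depended on single in vitro libraries, as given above. Groups of 2 libraries are too small to test for an outlying sample.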

How the results depend on the processing

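With 2 libraries per group, single libraries decide many calls. In vitro, 4 to 5 members passed with 1 library left out and 3 when the fit held all 8 libraries, and all genes called numbered 2400 (without WT replicate 1) to 3180. In vivo, 1 member passed with DESeq2, 1 with all 8 libraries and 0 to 1 with a library left out. All genes called in vivo numbered 505 with DESeq2, 545 with all 8 libraries, 52 at an FPKM of at least 5, 68 and 75 with limma on log2(FPKM + 1) and log2(FPKM + 0.1), and 6 (without WT replicate 2) to 248 (without KO replicate 2) with a library left out. For the difference between systems, 0 to 3 members and 535 to 1781 genes passed with a library left out. The cause of these shifts was not tested.

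Counts of called list genes with a library left out were 30 to 34 (ribosome biogenesis), 10 to 17 (metabolic targets) and 11 to 18 (tRNA synthetases) in vitro, and 17 to 30, 4 to 12 and 3 to 16 for the difference.

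The replicate numbers are not known to pair the samples. Deviations of same-numbered libraries correlated at -0.305 in vitro and 0.459 in vivo, over 2 pairs each. With the replicate block, 2 members (Mxd3 and Slc7a5), 12 list genes (7 higher and 5 lower) and 1078 genes in all passed in vivo, and in vitro Slc3a2 was lost (adjusted p = 0.0894) and no metabolic target rose. A crossed pairing in vitro, added after the data were seen, called 2546 genes higher and 2451 lower.

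Signs turned for values near 0 that passed in no fit. Max in vitro was -0.0023 with no filter, -0.0049 and -0.0050 with limma, and -0.02 to 0.08 with a library left out. In vivo with all 8 libraries, Max was 0.0119, Mxd4 0.0060 and Slc38a2 0.0083, and Slc3a2 was -0.0084 with total count scaling. With a library left out in vivo, Max ran from -0.06 to 0.05, Mxd4 from -0.25 to 0.19, Slc3a2 from -0.10 to 0.13, Slc1a5 from -0.10 to 0.18 and Slc38a2 from -0.13 to 0.12. The difference for Max was 0.0059 with RLE factors, 0.0060 with DESeq2, 0.02 with no filter, 0.0018 and 0.0019 with limma, and -0.07 to 0.05 with a library left out, and that for Slc1a5 ran from -0.23 to 0.09. Mxd3 was not tested in vivo at an FPKM of at least 5.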
